A study of Homo sapiens with 12 samples.

Results

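The interferon-stimulated antiviral effector genes are a set of 43 genes that cells switch on after sensing interferon, and their transcripts were followed here in human macrophage-like and endothelial cells given low-density lipoprotein (LDL). The genes were listed by symbol for their known antiviral function, and all 43 were found in the deposited table of 20117 genes. This list and the other gene lists below were chosen with earlier results of these data known. Counts over them are therefore not independent of these data. In THP-1 macrophages all 43 transcripts rose with LDL, by 1.01 to 9.11 on the log2 scale. There 35.5% of all genes tested were called higher and 29% lower. In EA.hy926 cells none of the 37 that could be tested passed the threshold in either direction, where 2.01% of all genes tested did. Of those 285 calls, 186 were genes listed at 0 in every library of a group, a pattern none of the 37 showed.

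Bulk RNA was sequenced from 12 libraries in 4 groups of 3 biological replicates. The groups were THP-1 with LDL, THP-1 control, EA.hy926 with LDL and EA.hy926 control. THP-1 is a monocytic leukaemia line, and the titles of all 6 libraries describe it as turned into macrophages with the phorbol ester PMA, although a cell type field reads monocytes. EA.hy926 is a hybrid of umbilical vein endothelium with the lung carcinoma line A549. Native LDL from donors with cardiovascular disease was given at 100 µg/mL for 24 h. Every group, controls included, spent that time without serum, THP-1 in RPMI-1640 and EA.hy926 in DMEM. Only the THP-1 titles name PMA, so an effect of line is not separable from one of medium or of PMA. The sources used here do not give the number of LDL preparations, and p-values measure only the spread between these libraries, which may be technical.

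The libraries held 6.23 to 7.96 M reads in THP-1 with LDL, 7.75 to 11.0 in THP-1 control, 4.32 to 7.78 in EA.hy926 with LDL and 6.88 to 7.97 in EA.hy926 control. Values are normalised counts, that is, reads per gene after the authors' division by a library size factor, and 1 read was worth 0.653 to 1.91 of them. Of 10 macrophage markers, 8 reached a mean of 10 in THP-1 with LDL and 9 in THP-1 control, with CD68 listed at 0 in both. Their summed level was 32866 to 35653 with LDL and 24695 to 26666 in control. Of these 10, the LDL mean was above the control mean for 3, CSF1R (17953 ± 834 with LDL, 9378 ± 656 in control), PTPRC and SPI1, and below it for 6, with ITGAM at 2497 ± 90.2 with LDL and 4876 ± 179.9 in control. MRC1, also among the 6, averaged 0.486 ± 0.842 with LDL and 28.0 ± 3.98 in control. The table holds 9 endothelial markers, of which 4 had such a mean in THP-1 with LDL and 5 in THP-1 control, among them PECAM1 and ENG, and CDH5, KDR, TEK and ERG were listed at 0 in both. In EA.hy926, 8 of these 9 passed that mean with LDL and 9 in control, while 9 of the 10 macrophage markers were listed at 0 with LDL and 8 in control. Of 10 lung epithelial markers 6 were in the table: KRT7, KRT8 and KRT18 were expressed in EA.hy926 and listed at 0 in THP-1, KRT19 and AKR1C1 were listed at 0 in both lines, and ELF3 was listed at 0 in EA.hy926 and averaged 23.1 in THP-1 with LDL and 34.0 in THP-1 control.

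As background, interferons bind receptors on the cell surface, the kinases JAK1 and TYK2 then phosphorylate transcription factors such as STAT2, which join IRF9 in a complex that enters the nucleus. The complex binds the interferon-stimulated response element, whose core is a pair of GAAA blocks, in the promoters of many genes. Their products sense viral RNA, block translation, trap virions or mark proteins with ISG15. Macrophages are a known source and target of interferon, and endothelial cells also respond to it.

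The response element was looked for in the RefSeq promoters, windows from 250 bases before to 50 bases after a transcript start (build GRCh38.p14), as GAAA, any 2 bases and GAAA on either strand, which on the other strand reads TTTC, any 2 bases and TTTC. Of the 43 genes, 35 had such a window and 26 of these (74.3%) held the letters in at least 1 window, against 4.38% of the 27305 genes with a window. By window, the shares were 64.6% of 48 and 3.57% of 35116. For IFIT2, IFITM2, MX2, OAS2, OASL, USP18, DHX58 and TRIM22 no window was used here. The following stretches are shown because they carry the element in genes with THP-1 log2 differences from 9.11 down to 1.90. They lie upstream of the transcript start, run 5′ to 3′ on the strand of the gene, and have the element in capitals. A further copy that crosses the start, at -6 to 4 in IFITM1 and -4 to 6 in IFIT5, is counted below but not marked.
IFI44L: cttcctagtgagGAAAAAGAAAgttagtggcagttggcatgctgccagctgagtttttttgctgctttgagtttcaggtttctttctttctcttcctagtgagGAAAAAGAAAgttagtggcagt
IFI27: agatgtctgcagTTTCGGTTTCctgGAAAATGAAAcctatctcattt
IFIT1: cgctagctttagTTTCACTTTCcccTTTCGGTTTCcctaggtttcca
IFIT3: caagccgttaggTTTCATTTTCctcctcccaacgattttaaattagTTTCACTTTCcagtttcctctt
IFIT5: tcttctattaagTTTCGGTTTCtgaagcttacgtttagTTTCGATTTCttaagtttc
HERC5: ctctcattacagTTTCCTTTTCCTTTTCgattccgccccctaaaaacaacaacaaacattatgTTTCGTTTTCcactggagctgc
ISG15: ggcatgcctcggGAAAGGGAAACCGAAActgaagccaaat
IFITM1: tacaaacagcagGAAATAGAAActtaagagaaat
IFITM3: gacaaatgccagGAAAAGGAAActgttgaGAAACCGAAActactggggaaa
BST2: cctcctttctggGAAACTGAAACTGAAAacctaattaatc
The stretches are at chr1:78620272-78620396 for IFI44L, chr14:94110616-94110662 for IFI27, chr10:89392495-89392541 for IFIT1, chr10:89327829-89327896 for IFIT3, chr10:89414511-89414567 for IFIT5, chr4:88456982-88457066 for HERC5, chr1:1013372-1013411 for ISG15 and chr11:313988-314021 for IFITM1, all on the plus strand. Those of IFITM3 (chr11:320874-320924) and BST2 (chr19:17405733-17405772) are on the minus strand.

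In ISG15, BST2 and HERC5 copies of the element overlap, so that GAAA or TTTC blocks follow each other with 2 bases between them. The IFI44L stretch holds 1 block of 34 bases in 2 exact copies, each with the element in it. The copies reach both ends of the printed stretch, so the repeat may be longer. IFIT1, IFIT3 and IFIT5 hold it as the TTTC form, and the IFI27 stretch holds it once in each orientation. A single copy was found in the best window of 12 genes, 2 copies in 10 genes and 3 copies in 4. The letters were absent from the windows of CMPK2, HERC6, IFI35, OAS1, RIGI, SAMD9L, SP100, SP110 and XAF1. The median THP-1 log2 difference was 3.87 over the 26 genes with the letters and 3.45 over the 9 without, and the ranges of 1.90 to 9.11 and 1.91 to 5.76 overlapped. The motif TTC, any 3 bases and GAA, bound by STAT dimers and its own reverse complement, occurred in 11 of the 35 genes (31.4%) and in 9.38% of all genes with a window.

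The sum of the 43 genes was the first readout compared. It took 1.58 ± 0.0244% of the library total in THP-1 with LDL and 0.154 ± 0.00283% in THP-1 control (SD, n = 3 each). In EA.hy926 it took 0.111 ± 0.00396% with LDL and 0.113 ± 0.00149% in control. All 3 THP-1 libraries with LDL stood above all other libraries, and the EA.hy926 libraries with LDL, at 0.107% to 0.114%, overlapped their controls at 0.112% to 0.115%. Other features of the libraries also moved in THP-1: the share of the nuclear RNA MALAT1 was 3.15 to 3.35% with LDL and 1.57 to 1.73% in control, and that of the 13 mitochondrially encoded mRNAs was 0.0383 to 0.0515% with LDL and 0.114 to 0.133% in control. Their part in the results below was not tested. In bulk RNA, more cells of a kind and more RNA per cell cannot be told apart.

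**Figure D1:**
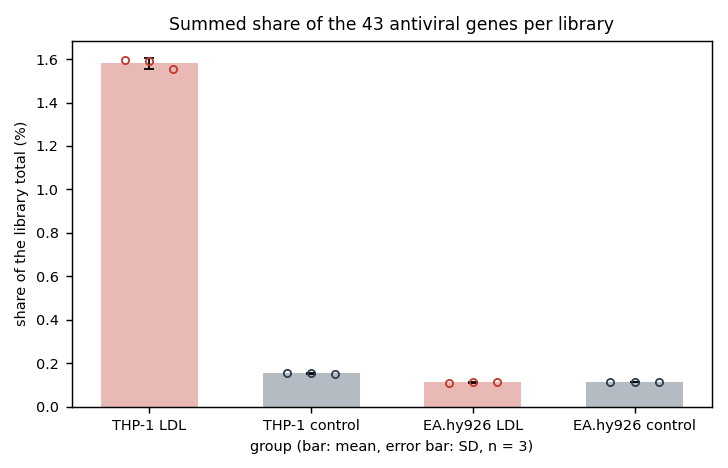
Share of each library's normalised counts taken by the 43 antiviral genes (y axis, percent), by group. Bars are means, error bars SD and circles the 3 libraries of a group. The THP-1 libraries with LDL stand at 1.55% to 1.60%, against 0.151% to 0.156% in THP-1 control.

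The first comparison asked how LDL changed these transcripts in THP-1. All 43 genes were tested and all 43 rose (limma on log2 of the normalised count plus 1, adjusted p under 0.05 over 16167 genes), where 64.5% of all genes tested were called, 35.5% higher and 29% lower. Of all calls 55.1% were higher as deposited, 48.4% with TMM scaling and 44.7% with quantile normalization. The median log2 difference was 3.78 over the 43 genes and 0.076 over all genes tested. Every LDL library was above every control library for each of the 43, as it was for 37.5% of all genes tested. The rise was at least 1 on the log2 scale for all 43 genes, which held for 16.9% of all genes tested, and at least 4 for 19 genes, which held for 1.82%. Of the 100 largest log2 differences among all genes, 14 belonged to the set. IFI27 reached the required mean of 10 only with LDL, so its difference is not independent of the filter, and the other 42 reached it in both groups.

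**Figure D2:**
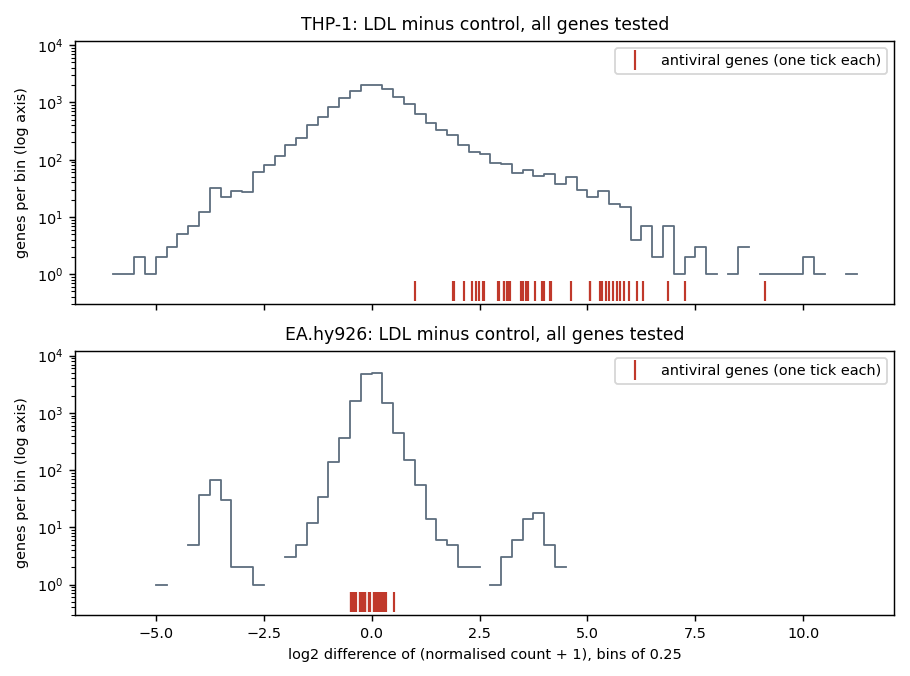
Number of genes (y axis, log scale) by log2 difference between LDL and control libraries (x axis, bins of 0.25), for THP-1 above and EA.hy926 below, with a red tick for each antiviral gene tested. The THP-1 ticks run from 1.01 to 9.11, and the EA.hy926 ticks stay between -0.47 and 0.52. The outer humps in EA.hy926 are mostly the 187 genes listed at 0 throughout a group.

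IFI44L and IFI44 are neighbours on chromosome 1 and encode related proteins limiting viral replication, and IFI44L had the largest difference of the 43 genes. IFI44L (ENSG00000137959.17, chr1:78619922-78646145, plus strand, build GRCh38, GENCODE 29) had 12556, 15617 and 14029.8 normalised counts in the THP-1 libraries with LDL, against 21.8, 21.6 and 31.0 in control, a log2 difference of 9.11 ± 0.13 (SE; limma adjusted p = 2.3e-14). All LDL libraries stood far above all controls. IFI44 averaged 4385 ± 158 with LDL and 84.2 ± 7.69 in control (SD, n = 3 each), a difference of 5.69. IFI27, a small protein of mitochondrial and nuclear membranes, had 787, 659.6 and 677 with LDL and 8.71, 3.92 and 3.76 in control, which is a few reads per control library, and a difference of 6.86 ± 0.25. IFI6, a small membrane protein that protects infected cells from death, had the highest control level of this class and rose less, to 5448 ± 1084 with LDL, against 643 ± 13.7 in control (log2 3.06). The last 3 of this class rose as well. EPSTI1 had 1483, 1529 and 1527 with LDL and 33.1, 32.0 and 32.9 in control. XAF1, an antagonist of the apoptosis inhibitor XIAP, had log2 3.45 and IFI35 3.17. Annotated exons of XAF1 overlap those of the opposite-strand gene PRAL over 2535 bases, and the sources used here do not say whether counting used strand.

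Among the enzymes of nucleotides and RNA ends, RSAD2 (viperin), which makes a chain-terminating analogue of CTP, rose most. It had 7434, 7607 and 6327 normalised counts with LDL, against 47.0, 48.4 and 41.3 in control (log2 7.26 ± 0.091, adjusted p = 2.0e-14). CMPK2, a mitochondrial nucleotide kinase next to RSAD2 on chromosome 2, had 5511, 5963 and 5207 with LDL and 121, 103 and 119 in control (log2 5.59 ± 0.082). For both neighbours every LDL library was above every control library, and their annotated exons share 14 bases on opposite strands. ISG20, an exonuclease of single-stranded RNA, averaged 1487 ± 134 with LDL and 37.1 ± 4.71 in control.

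The IFIT genes, whose products bind foreign RNA ends, sit in a cluster on chromosome 10. IFIT1 (ENSG00000185745.10, chr10:89392546-89406486, plus strand), which holds back RNA with an unmethylated cap, had 1919, 2045 and 1898 with LDL and 27.0, 24.8 and 20.7 in control, a log2 difference of 6.29 ± 0.11 (adjusted p = 1.0e-13). IFIT2 and IFIT3, which form complexes with IFIT1, had differences of 5.42 and 5.05. IFIT5 was the least changed of the 4, at 705 ± 66.8 with LDL and 56.0 ± 0.936 in control (log2 3.63). For all 4 neighbours every LDL library was above every control library.

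The oligoadenylate synthetases make the messenger that activates the nuclease RNase L. OAS1 had 3442, 3225 and 3099.9 with LDL and 369, 411 and 389 in control (log2 3.06 ± 0.069, adjusted p = 9.7e-13). OAS2 had a difference of 3.98 and OAS3 of 3.14, OAS3 with the highest mean count of the set, 15357 ± 719 with LDL and 1739 ± 60.1 in control. OASL, a relative without synthetase activity that binds RIG-I, rose far more, with 1876, 1637 and 1651 with LDL and 23.5, 18.9 and 28.2 in control (log2 6.15 ± 0.13). OAS1, OAS2 and OAS3 lie side by side on chromosome 12, and OASL lies farther along the same chromosome.

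The dynamin-like GTPases MX1 and MX2, which block incoming viral nucleoproteins and capsids, both rose. MX1 (ENSG00000157601.15, chr21:41420304-41459214, plus strand) had 8037, 7227 and 7565 with LDL and 139, 114 and 114 in control (log2 5.95 ± 0.085, adjusted p = 2.5e-14). MX2 averaged 4235 ± 217 with LDL and 172 ± 5.54 in control (log2 4.61). Both groups of libraries were clear of each other for each gene.

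The RNA sensors rose by differing amounts. RIGI (ENSG00000107201.11, chr9:32455705-32526324, minus strand), the sensor of short RNA with a 5′ triphosphate, had 1695, 1757 and 1799 with LDL and 33.1, 34.0 and 27.3 in control (log2 5.76 ± 0.10, adjusted p = 1.4e-13). IFIH1 (MDA5), the sensor of long double-stranded RNA, averaged 2881 ± 119 with LDL and 185 ± 6.02 in control (log2 3.95). DHX58 (LGP2), a related helicase without a signalling domain, had 1229, 972 and 1105 with LDL and 167, 192 and 183 in control (log2 2.60 ± 0.096). Control levels were thus lowest for RIGI, which showed the largest difference of the 4, and DDX60, another helicase, went to 3753 ± 311 with LDL, against 626 ± 9.13 in control (log2 2.58).

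ISG15, a ubiquitin-like protein, and the enzymes that attach or remove it also rose. ISG15 (ENSG00000187608.10, chr1:1001138-1014540, plus strand) had 1244, 821 and 1062 with LDL and 48.8, 66.0 and 58.3 in control (log2 4.14 ± 0.15, adjusted p = 8.5e-11). HERC5, the ligase of ISG15 in human cells, had 1412, 1486 and 1368 with LDL and 37.4, 40.5 and 26.3 in control (log2 5.34 ± 0.14). ISG15 was the least even of the 43 genes across the LDL libraries, with a coefficient of variation of 20.3% where the median gene had 5.94%. HERC6, beside HERC5 on chromosome 4, had log2 4.15. USP18, which removes ISG15 and restrains the interferon receptor, had 2.96.

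Genes that stop translation and those of ADP-ribosylation rose by 2.15 to 3.57. EIF2AK2 (PKR), the kinase that halts translation on double-stranded RNA, had 2575, 2792 and 2809.8 with LDL and 584, 557 and 499.9 in control (log2 2.32 ± 0.073, adjusted p = 2.4e-11). The neighbours SAMD9 and SAMD9L on chromosome 7, which restrict poxviruses, had differences of 3.17 and 3.57. PARP14, an ADP-ribosyltransferase, averaged 8861 ± 438 with LDL and 778 ± 20.6 in control (log2 3.51). PARP9 and the ubiquitin ligase DTX3L, which work as a pair, start head to head on chromosome 3 and had differences of 3.21 and 2.15. Their annotated exons overlap over 217 bases on opposite strands.

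The IFITM genes, which keep viruses from fusing with endosomes, differed widely among themselves. IFITM1 averaged 474 ± 28.2 with LDL and 13.5 ± 2.79 in control (log2 5.06). IFITM3 (ENSG00000142089.17, chr11:319669-327537, minus strand) had 1642, 1753 and 1637 with LDL and 222, 204 and 236 in control (log2 2.92 ± 0.076, adjusted p = 3.9e-12). IFITM2 had the smallest difference of all 43 genes, 188 ± 14.7 with LDL and 92.8 ± 4.89 in control (log2 1.01 ± 0.12, adjusted p = 8.4e-06). The 3 genes are close copies of each other on chromosome 11, and annotated exons of IFITM1 and IFITM2 overlap on the same strand, so reads may have been dropped or assigned to another copy and their values are uncertain.

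Genes of membrane, secreted and nuclear body proteins had differences of 1.90 to 5.86. BST2 (tetherin; ENSG00000130303.14, chr19:17402939-17405648, minus strand), which holds budding virions at the cell surface, had 2668, 2194 and 2113 with LDL and 584, 619 and 663 in control (log2 1.90 ± 0.088, adjusted p = 1.0e-09). LGALS3BP, a secreted glycoprotein, had log2 2.42 and PLSCR1, a membrane protein that limits viral entry, 3.78. TRIM22, a ubiquitin ligase, averaged 4995 ± 91.0 with LDL and 85.4 ± 5.36 in control (log2 5.86). SP100 and SP110, proteins of nuclear bodies, had 1.91 and 2.49. Annotated exons on the opposite strand also overlap those of SP110 over 1432 bases, EIF2AK2 over 436, IFITM3 over 287 and MX1 over 236.

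**Figure D3:**
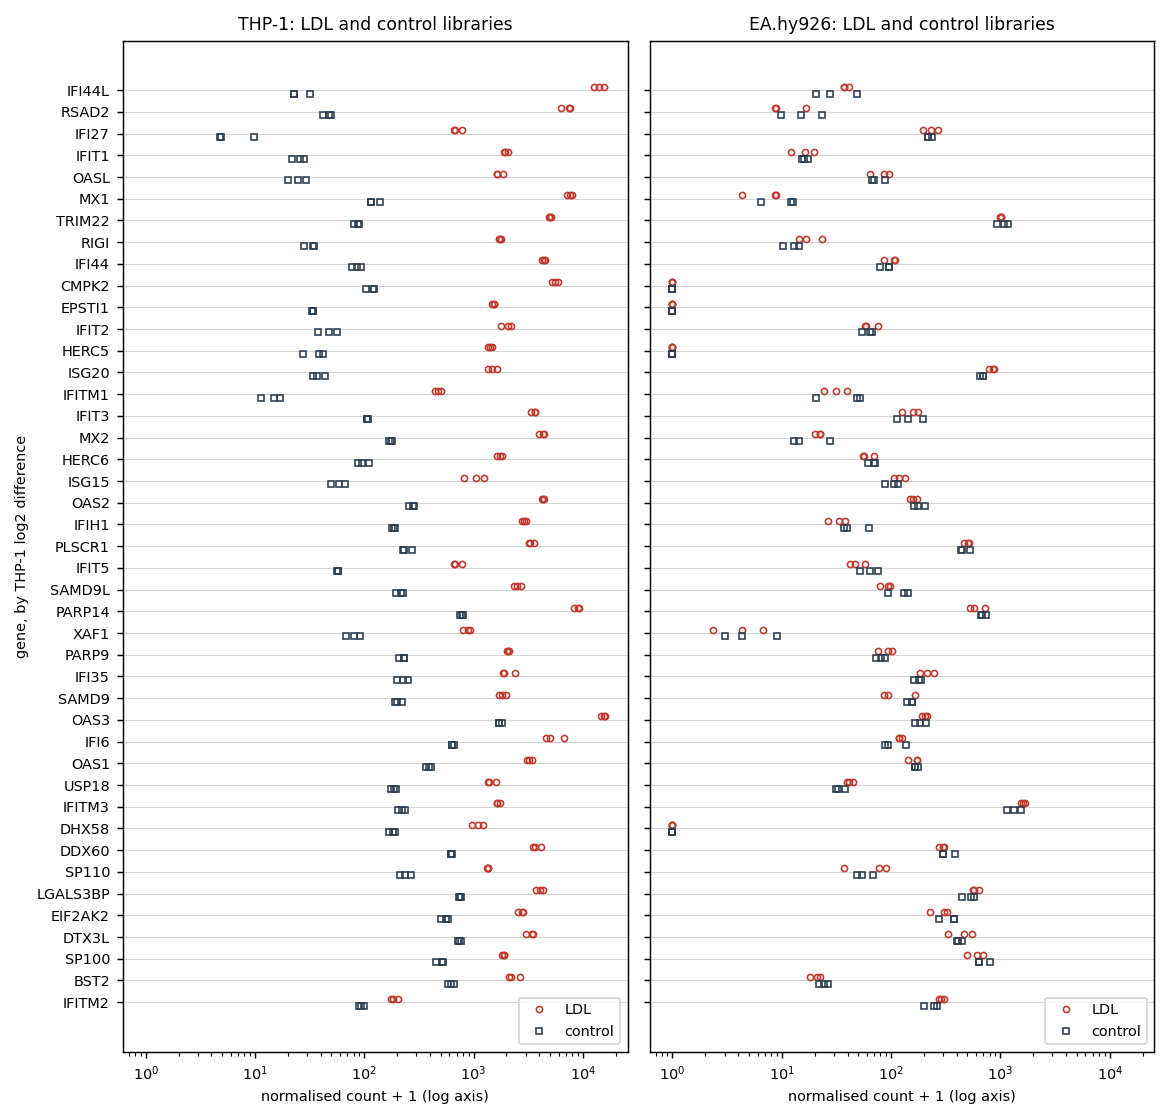
Normalised count plus 1 (x axis, log scale) of each antiviral gene in each library, with red circles for LDL and dark squares for control, THP-1 on the left and EA.hy926 on the right. Genes run down the page from the largest to the smallest THP-1 log2 difference. In THP-1 the circles lie to the right of the squares for every gene, and in EA.hy926 they mix for most.

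Per kilobase of annotated exon, the ranking of levels in THP-1 with LDL was led by IFI6 at 6298 normalised counts per kilobase, then IFI44 at 2151, BST2 at 2078 and OAS3 at 1861. In THP-1 control IFI6 also led, at 743, followed by BST2 at 556, while IFI44 stood at 41.3. In EA.hy926 the first was IFITM3, at 1195 with LDL and 999 in control. BST2 stood there at 17.4 with LDL and 20.7 in control.

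The second comparison asked the same of EA.hy926. Of the 43 genes, 37 were tested, 0 rose and 0 fell (limma, adjusted p under 0.05 over 14202 genes), where 2.01% of all genes tested were called, 0.873% higher and 1.13% lower. Without adjustment 2 of the 37, ISG20 and IFITM3, had p under 0.05, both higher with LDL. Among all 14202 genes tested, 1583 had such a p, in either direction. With edgeR and DESeq2 on recovered reads 0 of the 37 were called as well. Of the 285 calls among all genes, 186 were genes listed at 0 throughout a group, a pattern none of the 37 showed. The median log2 difference was 0.066 over the 37 genes and 0.0013 over all genes tested, with 21 genes above 0 and 16 below.

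ISG20 had 853, 882 and 790.5 normalised counts in EA.hy926 with LDL and 654, 687 and 698 in control. Its LDL libraries were all above the controls, with a log2 difference of 0.31 ± 0.099 (95% interval 0.092 to 0.52; limma adjusted p = 0.223). IFITM3 had 1601, 1688 and 1542 with LDL and 1346, 1552 and 1141 in control, with 1 control library above the lowest LDL library, and a difference of 0.27 ± 0.12 (interval 0.014 to 0.52; adjusted p = 0.415). RIGI, USP18 and IFITM2 also had all LDL libraries above all controls, as 8.15% of all genes tested did, and RIGI had 22.5, 13.4 and 15.7 with LDL and 13.3, 12.1 and 9.28 in control, values of few reads. SAMD9, SAMD9L and IFIH1 had the lowest differences with RSAD2, at -0.45, -0.42, -0.47 and -0.47, and did not pass. No gene of the set had all LDL libraries below all controls, which 8.25% of all genes tested had.

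How far the data limit a change in EA.hy926 differed by gene. The 95% interval lay within 1 log2 unit of 0 on both sides for 31 of the 37 genes, and over all 37 the intervals reached from -1.37 to 1.25. TRIM22 had 1011 ± 12.3 with LDL and 1063 ± 119 in control (interval -0.30 to 0.16). OAS1 had 142, 170.0 and 172 with LDL and 165, 163 and 176 in control (interval -0.40 to 0.27). Both intervals exclude a change of the THP-1 size. EIF2AK2 had 224, 304 and 324 with LDL and 372, 276 and 372 in control (interval -0.63 to 0.10), and ISG15 had 134, 118 and 105 with LDL and 87.7, 115 and 106 in control (interval -0.19 to 0.62). OASL had 86.1, 95.5 and 62.7 with LDL and 87.7, 69.1 and 66.1 in control (interval -0.37 to 0.61). The groups overlapped for all 3.

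RSAD2, IFIT1, BST2 and IFI44L had few reads in EA.hy926. RSAD2 had 7.95, 7.64 and 15.7 with LDL and 22.4, 8.77 and 13.9 in control (interval -1.37 to 0.43). IFIT1 had 18.5, 15.3 and 11.2 with LDL and 16.3, 14.3 and 15.1 in control (interval -0.74 to 0.65), and BST2 had 19.9, 17.2 and 21.3 with LDL and 23.5, 25.2 and 20.9 in control (interval -0.86 to 0.37). IFI44L had 35.8, 36.3 and 40.3 with LDL and 26.5, 19.7 and 47.5 in control (interval -0.36 to 1.04). For these 4 genes the groups overlapped, and 1 read alone moved a library's value by 1.02 to 1.91. IFI27 was well measured, with 232, 197 and 266 with LDL and 235, 215 and 216 in control, and its groups overlapped too.

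**Figure D4:**
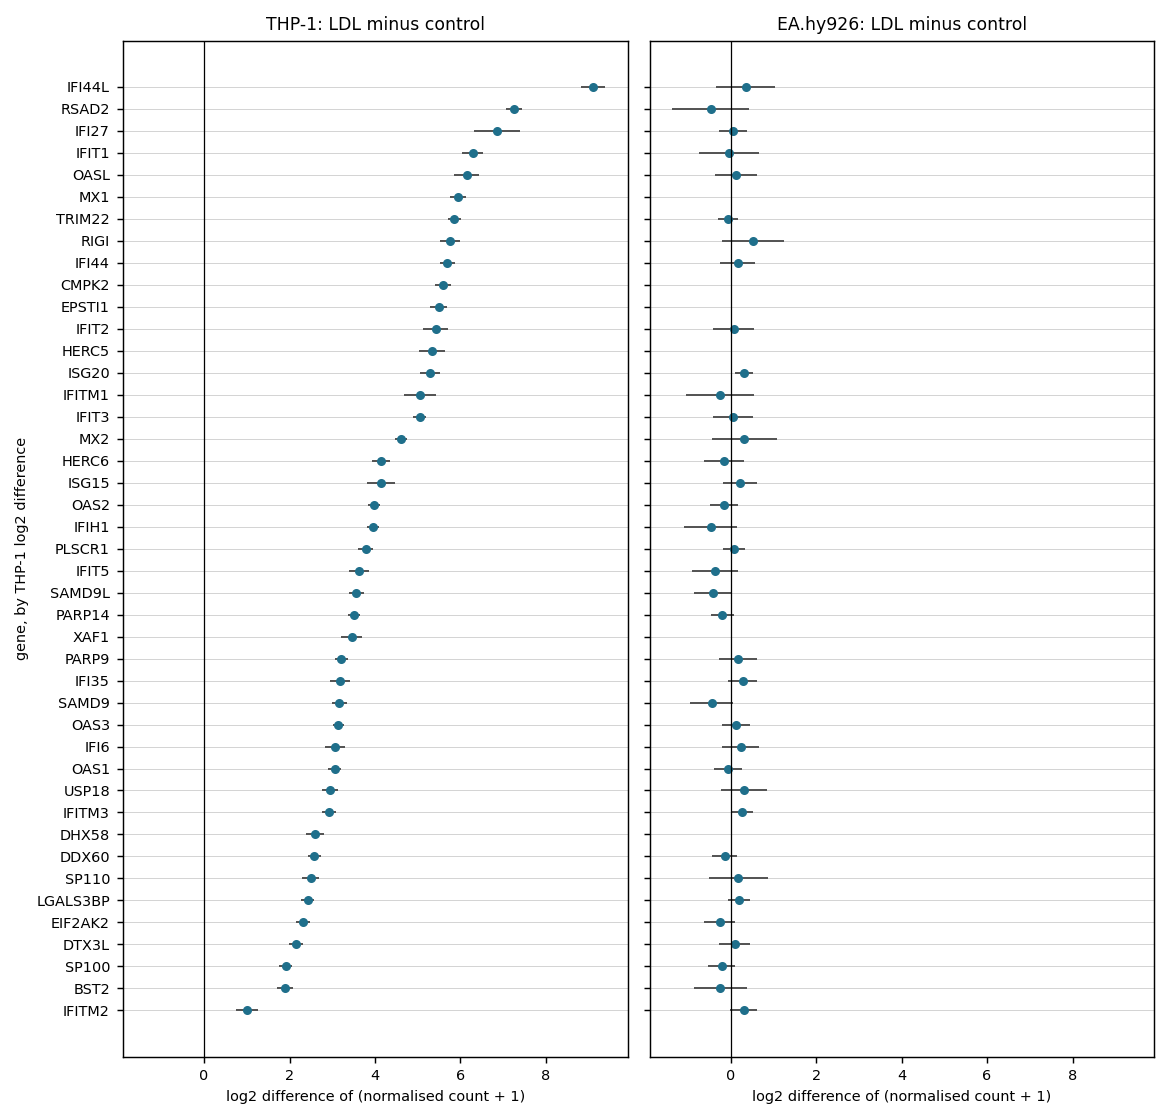
Log2 difference between LDL and control libraries (x axis) for each antiviral gene, THP-1 on the left and EA.hy926 on the right, with the limma estimate as a point and its 95% interval as a line. Every THP-1 interval lies above 0, and most of the 37 EA.hy926 intervals cross it. A missing point is a gene not tested in EA.hy926.

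The other 6 genes had a mean under 10 in both EA.hy926 groups and were not tested. MX1 had 7.95, 7.64 and 3.36 with LDL and 11.2, 5.48 and 11.6 in control, and XAF1 averaged 3.47 ± 2.20 with LDL and 4.48 ± 3.21 in control. DHX58, CMPK2, HERC5 and EPSTI1 were listed at 0 in all 6 EA.hy926 libraries. Of 928 genes with a mean of 10 to 15 normalised counts in EA.hy926 control, 133 had 0 reads in every LDL library and 0 had a total of 1 to 6, and of 834 such genes in EA.hy926 with LDL, 35 had 0 reads in every control library and 0 had 1 to 6. In THP-1 the counts were 29 and 6 of 816 genes with LDL and 33 and 19 of 1128 in control. A listed 0 is not read as absence here, and no fold is given against it.

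The difference between the lines was tested directly. For all 37 genes measured in both, the log2 change with LDL was larger in THP-1 (limma interaction over 12 libraries, adjusted p under 0.05 over 12534 genes), where 47.1% of all genes tested were called, 25.2% in that direction and 21.9% in the other. The median of this difference was 3.93 over the 37 genes and 0.048 over all genes tested. It was largest for IFI44L at 8.76 ± 0.33 and RSAD2 at 7.72 ± 0.39. It was smallest for IFITM2, at 0.71 ± 0.19 (adjusted p = 0.00458). IFI27 reached the required mean in THP-1 only with LDL, so its value here is not independent of the filter. It is counted among the 37 and in their median. Medium and PMA differed along with line in this comparison.

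Levels in the lines were also set side by side, as values with no test. DHX58, CMPK2, HERC5 and EPSTI1, listed at 0 in EA.hy926, were left out, which leaves 39 genes. In the control libraries 24 of the 39 were higher in THP-1 than in EA.hy926 with no overlap, 11 were lower and 4 overlapped. Of all 12942 genes with a mean of 10 in either control group and not listed at 0 throughout one, 41.3% were higher and 38.7% lower with no overlap. TRIM22 averaged 85.4 ± 5.36 in THP-1 control and 1063 ± 119 in EA.hy926 control. ISG20 averaged 37.1 ± 4.71 in THP-1 control and 679.5 ± 22.9 in EA.hy926 control, and IFI27 averaged 5.46 ± 2.81 in THP-1 control and 222 ± 11.2 in EA.hy926 control. IFITM3, OASL, ISG15, IFIT3, IFITM1, IFITM2, PLSCR1 and SP100 were the other 8 with lower values in THP-1 control. With LDL, 37 of the 39 were higher in THP-1 than in EA.hy926, where 41.5% of 12820 genes were higher and 36.6% lower. IFITM3 overlapped, and IFITM2 was lower: its mean was 188 ± 14.7 for THP-1 and 288 ± 18.1 for EA.hy926.

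The pathway upstream was read through a list of 30 genes of interferon ligands, receptors and signalling, of which 22 were in the table. In THP-1, 15 of the 21 tested rose, 4 fell and 2 did not pass, where 35.5% of all genes tested were called higher and 29% lower, with a median log2 difference of 0.82, against 0.076 over all genes tested. The 4 that fell were IFNGR1, STING1, the transcription factor IRF3 at log2 -0.40 and the adaptor MAVS at -0.49, the last 2 named after their values were seen. Other transcription factors of the response rose. STAT2 had 12218, 11508 and 11866 with LDL and 1103, 1057 and 1186 in control (log2 3.41 ± 0.062, adjusted p = 1.5e-13). IRF9, which binds the response element with it, averaged 726 ± 113 with LDL and 135 ± 7.58 in control. IRF7, the factor that amplifies interferon production, averaged 1858 ± 245 with LDL and 138 ± 17.5 in control, and IRF1 averaged 4895 ± 151 with LDL and 899.7 ± 12.4 in control. All LDL libraries stood above all controls for these 4 genes.

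Of the 5 receptor chains tested, 2 rose, 1 fell and 2 did not pass. IFNAR1, the first chain of the type I interferon receptor, rose to 1322 ± 107 with LDL, against 863 ± 36.6 in control (log2 0.61 ± 0.073). IFNAR2, the second chain, had 859 ± 62.5 with LDL and 825 ± 38.3 in control and did not pass (adjusted p = 0.521). The chains of the interferon gamma receptor went opposite ways, IFNGR2 up to 3140.3 ± 130.4, against 1157 ± 38.8 in control, and IFNGR1 down to 2420.3 ± 283, against 7691 ± 63.8. The kinase gene JAK2 had log2 1.37. SOCS3, an inhibitor of cytokine signalling, had log2 3.56, and SOCS1, the inhibitor of interferon signalling, had 86.7, 121 and 162 with LDL and 73.2, 70.6 and 89.3 in control (log2 0.62 ± 0.20, adjusted p = 0.0169). For SOCS1 the lowest LDL library was below the highest control library, so the groups overlapped. STING1, the adaptor of DNA sensing, fell to 322 ± 30.4 with LDL, against 903 ± 66.2 in control. Of the 8 ligands listed, only IFNE was in the table, listed at 0 in THP-1, and IFNB1 was not analysed here. In EA.hy926, 0 of the 21 tested passed in either direction by limma, edgeR or DESeq2, and without adjustment limma gave 3 higher and 3 lower at p under 0.05. Of all 14202 genes tested there by limma, 2.01% passed, mostly genes listed at 0 throughout a group, and 1583 had such an unadjusted p. STAT2 had 878 ± 93.8 with LDL and 872 ± 108 in control (interval -0.25 to 0.28; adjusted p = 0.977). SOCS1, among the 3 higher without adjustment, had 656 ± 230 with LDL and 356 ± 115 in control (log2 0.86, interval 0.27 to 1.46, limma adjusted p = 0.205).

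**Figure D5:**
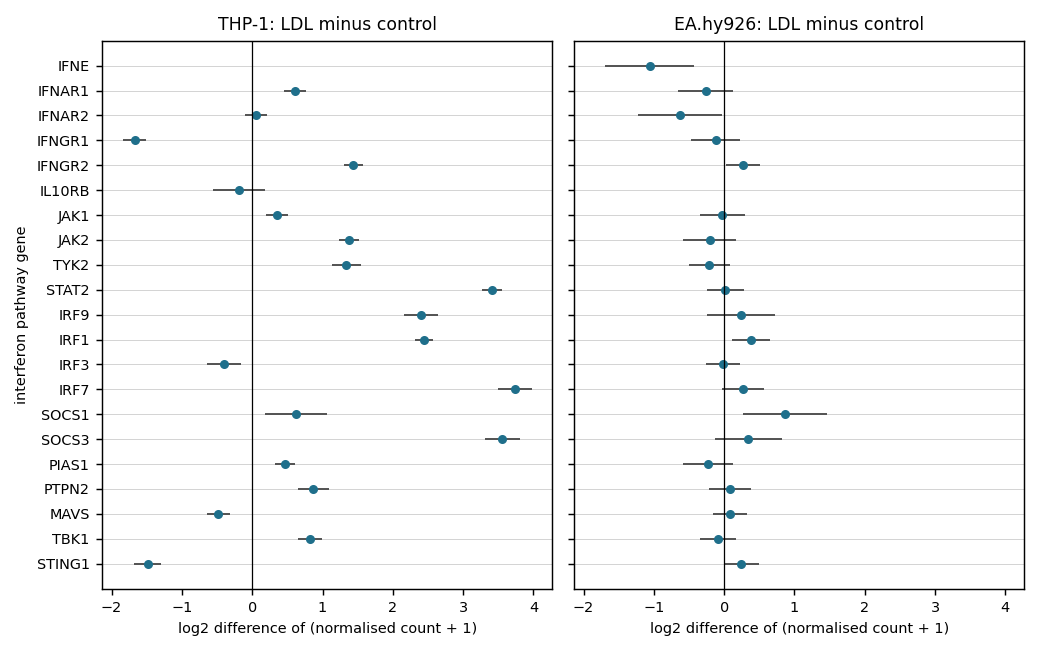
Log2 difference between LDL and control libraries (x axis) for 21 of the genes of interferon ligands, receptors and signalling in the table, THP-1 on the left and EA.hy926 on the right, with limma estimates as points and 95% intervals as lines. In THP-1, IRF7, SOCS3 and STAT2 lie between 3.41 and 3.74, and IFNGR1 and STING1 lie below -1.4. A missing point is a gene not tested in that line.

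A list of 24 other antiviral effectors was read in the same way, and 21 rose and 3 fell in THP-1, where 35.5% of all genes tested were called higher and 29% lower. The median log2 difference was 1.29 over the list and 0.076 over all genes tested. The ISG15-conjugating enzyme UBE2L6 averaged 1393 ± 101 with LDL and 219 ± 10.9 in control, and TRIM25, a ubiquitin ligase that activates RIG-I, averaged 3997 ± 138 with LDL and 1009 ± 50.2 in control. The other examples with the smallest adjusted p were SLFN5 at log2 2.21, SHFL, which blocks ribosomal frameshifting, at 2.28, the DNA sensor IFI16 at 2.12 and the capsid sensor TRIM5 at 2.76. The 3 that fell, named after their values were seen, were the cytidine deaminase genes APOBEC3B and APOBEC3C at -1.35 and -1.65 and SLFN11 at -1.13. ZBP1, a sensor of Z-form nucleic acid named for the same reason, was listed at 0 in THP-1 control and had 57.8, 55.2 and 64.2 with LDL. APOBEC3A, also named after its values were seen, averaged 22.2 ± 4.92 in THP-1 with LDL and 0.436 ± 0.755 in THP-1 control. ZBP1 and APOBEC3A reached the required mean only with LDL, so their rises are not independent of the filter. Both are counted among the 21 and in the median of the list. In EA.hy926, 0 of the 22 tested passed by limma, edgeR or DESeq2, and 0 had an unadjusted limma p under 0.05. Of all 14202 genes tested there by limma, 2.01% passed, mostly genes listed at 0 throughout a group, and 1583 had such an unadjusted p.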

How the data were processed

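Total RNA of 12 libraries was sequenced (VAHTS Universal V8 kit, per the labels' protocols). STAR, HTSeq, DESeq2, FastQC, MultiQC and the build GRCh38 are named in the submitters' processing notes, which do not give versions, annotation release, strand setting or filters here. Deposited values are a signal, read counts that the authors divided by a size factor per library. All were whole multiples of their library's value of 1 read (100% within 0.001), so whole reads could be recovered, and the edgeR call counts on them are given in the closing section. A gene name table supplied symbols for 20104 of 20117 identifiers; positions and exon lengths are from GENCODE 29 and promoters from RefSeq.

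Separate limma fits per line (version 3.58.1, R 4.3.3; two-sided, with trend) used log2(value + 1) of genes whose mean reached 10 in either group. Adjustment was Benjamini-Hochberg over all genes tested, threshold 0.05. A log2 difference on this scale understates the change of low genes. The interaction used the 12 libraries and genes with that mean in a group of each line. With 3 against 3 libraries an exact test cannot go below 0.1, so the fit borrows spread across genes. No replicate pair agreed within sampling noise (chi-square over its degrees of freedom, 1.93 to 20.7), so none was merged. Alternatives were other pseudocounts, filters, scalings, edgeR 4.0.16, DESeq2 1.42.0, a replicate block, and leaving out each library. Values in every library were printed for 9 fixed genes, the 6 largest differences past the threshold in each line and genes listed at 0 throughout a group, and from the other lists for 8 fixed genes with up to 6 more by adjusted p. One gene of the pathway list is counted but not reported here. Members and lists were chosen with earlier results of these data known.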

Additional observations from a re-analysis of the deposited data

Results flagged for a closer look

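For the 37 antiviral genes measured in both lines, the change with LDL differed between THP-1 and EA.hy926 by the limma interaction test, and each value below is the log2 change in THP-1 minus that in EA.hy926. Of all 12534 genes tested this way 47.1% were called, 25.2% with a value above 0 and 21.9% with a value below 0. Medium and PMA differed along with line.

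Among the RNA sensors it was RIGI 5.24, IFIH1 4.42 and DDX60 2.73. In the OAS family it was OAS1 3.12, OAS2 4.15, OAS3 3.02 and OASL 6.03. In the IFIT family it was IFIT1 6.33, IFIT2 5.36, IFIT3 5.00 and IFIT5 4.00. In the IFITM family it was IFITM1 5.31, IFITM2 0.71 and IFITM3 2.65. Of the MX genes, only MX2 was measured in both lines, at 4.29. For ISG15 and the genes grouped with it the values were ISG15 3.93, USP18 2.65 and HERC6 4.31. For the nucleotide and RNA end enzymes they were RSAD2 7.72 and ISG20 4.98. The inhibitors of translation had EIF2AK2 2.58, SAMD9 3.62 and SAMD9L 3.99. The ADP-ribosylation genes had PARP9 3.05, DTX3L 2.07 and PARP14 3.71. Nuclear body and TRIM genes had SP100 2.13, SP110 2.32 and TRIM22 5.92. Membrane and secreted proteins had BST2 2.14, PLSCR1 3.71 and LGALS3BP 2.23. The remaining small proteins had IFI6 2.84, IFI27 6.80, IFI35 2.90, IFI44 5.53 and IFI44L 8.76. The adjusted p was at most 0.00458, the value of IFITM2, and all 37 changes were larger in THP-1. IFI27 reached the required mean in THP-1 only with LDL, so its value is not independent of the filter.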

How the results depend on the processing

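Under every alternative run, all 43 genes stayed called higher in THP-1, 0 were called in EA.hy926, and every gene tested for the difference between the lines was called larger in THP-1 (28 to 39 genes, as the filters changed how many were tested). Over 774 values of single genes in THP-1, 657 in EA.hy926 and 842 for the difference, none changed its direction past the threshold or its side of it. The median log2 difference over the 43 genes in THP-1, 3.78, was 3.68 with TMM, 3.59 with quantile normalization, 3.69 with edgeR and 3.72 with DESeq2 on recovered reads, and 3.73 to 3.87 when a library was left out. The median of all genes also moved, 0.076 as deposited, -0.022 with TMM and -0.082 with quantile normalization. In EA.hy926 the median, 0.066, ran from -0.056 to 0.069 when a library was left out, with the change of sign without LDL replicate 3. For the difference between the lines, 3.93, it was 3.66 with a mean of at least 50, 3.77 with quantile normalization and 3.79 to 3.98 when a library was left out; the cause was not tested.

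Counts over all genes moved more. edgeR called 5187 genes higher and 5423 lower in THP-1, and 130 and 164 in EA.hy926. In THP-1, 5743 higher and 4682 lower calls became 4636 and 5728 after quantile normalization. In EA.hy926, 124 higher and 161 lower calls became 38 and 7 with a mean of at least 50, 41 and 7 without genes listed at 0 in a group, 217 and 256 with 12 libraries in one fit, and 310 lower with no filter. Leaving out a library gave 78 (without LDL replicate 2) to 168 higher and 117 to 173 lower. Same-numbered libraries share only a number: the correlations of their deviations from the group means were -0.13, -0.088 and 0.070 in THP-1 and -0.51, 0.058 and -0.42 in EA.hy926. For LDL and control libraries of unlike number they ran from -0.094 to 0.18 in THP-1 and from -0.25 to 0.59 in EA.hy926. The highest in EA.hy926 was LDL replicate 3 with control replicate 1, and its origin was not tested. With the replicate block 5721 genes were higher and 4656 lower in THP-1 and 84 and 147 in EA.hy926, and the counts for the 43 genes did not move. For the interferon pathway and other effector lists, the same alternatives were applied after seeing the data. THP-1 counts were 14 to 15 higher and 4 lower for the pathway and 20 to 21 higher and 3 to 4 lower for the effectors. In EA.hy926 the pathway's 0 calls became 2 lower with 12 libraries in one fit and 0 to 2 higher when a library was left out, 2 without LDL replicate 3. Depth limits low values: 1 read was worth up to 1.91 normalised counts.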

Other observations

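The 3 THP-1 libraries with LDL did not rank the antiviral genes alike. Replicate 1 was the highest of the 3 for 20 genes, among them ISG15, ISG20, IFI6, IFI27, IFI35, MX1 and BST2. Replicate 2 was the highest for 18, among them IFI44L, IFIT1, IFIT2, SAMD9, SAMD9L, PARP14 and DDX60, and replicate 3 for 5. IFI6 had 6675, 4620.0 and 5049 normalised counts and IFI44L 12556, 15617 and 14029.8 in replicates 1 to 3. The median annotated exon length was 3995 bases for the genes highest in replicate 1, 5358.5 for those highest in replicate 2 and 4353 for those highest in replicate 3. This split between replicates is small beside the distance to the control libraries, and its origin was not tested.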
